A study of Homo sapiens with 4 samples.

Results

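CTCF peaks on raised local background are places where the CTCF protein was found on DNA and where the 10 kb around the peak also held many sequenced tags. They were taken from the peak list of 1 chromatin immunoprecipitation and sequencing (ChIP-seq) library. For each peak the local background was obtained by dividing its normalised tags by its fold over the surrounding 10 kb, which gives the tags expected in a 349 bp window from those surroundings. Normalised tags are tags scaled to a library of 10000000. Members were chosen by these deposited tags and folds: autosomal peaks with a local background of 4 or more were kept, and those inside or within 1 kb of CTCF, RAD21, STAG3 and REC8 were left out. This left 1307 peaks of 42462 called in all, called members below. The other 39978 autosomal peaks outside those 4 genes are called other peaks.

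The cells were MDA-MB-435, an established human melanoma line, growing asynchronously and therefore mixed over the cell cycle, and the antibody was a rabbit antibody against CTCF. The series has 4 samples, 2 of asynchronous cells and 2 of nocodazole-arrested mitotic cells with an antibody against pT431 CTCF. The values here come from asynchronous replicate 1 alone; mitotic cells and the second replicate were not analysed here. Every value is therefore from 1 library of 1 line, without replicates, and no test between conditions was made. Intervals are 95% intervals (exact Clopper-Pearson for shares, exact Poisson for tags, order statistics for medians) and cover counting error only. They treat each peak as independent, which peaks side by side are not. Sequencing depth was 19210460 tags and 11.7% of them fell in peaks, and 1 normalised tag stood for 1.92 sequenced tags. No control library was named in the peak list, so a region with extra DNA copies or collapsed repeats cannot be told apart from a region with more bound protein.

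CTCF is a zinc finger protein that binds a long GC-rich motif. It stops the cohesin ring as the ring extrudes DNA, so that bound sites become anchors of chromatin loops and boundaries of domains. It also binds insulators and many promoters, and neighbouring sites often lie close together at strong boundaries.

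The sequences below show the DNA under the strongest members at annotated transcript starts, of which a gene may have several. They are the 250 bases upstream of the start, from RefSeq on GRCh38.p14, for the 5 members with the most tags that shared at least 100 bases with such a stretch. Each is written 5′ to 3′ on the gene's strand, and capitals mark matches to a short form of the CTCF core motif on either strand, which asks for CC, any 3 bases, AG, any 2 bases and GGC. They lie at chr3:136752379-136752628 (minus strand) for STAG1, a cohesin subunit gene, chr17:45135437-45135686 (plus) for ACBD4, which encodes an acyl-CoA binding protein and where the start is an internal one with its member 2956 bp from any gene end, chr5:138352435-138352684 (plus) for the histone demethylase gene KDM3B, chr10:48656266-48656515 (minus) for ARHGAP22, a GTPase-activating protein gene, and chr9:124853210-124853459 (plus) for WDR38, which encodes a WD repeat protein.
STAG1: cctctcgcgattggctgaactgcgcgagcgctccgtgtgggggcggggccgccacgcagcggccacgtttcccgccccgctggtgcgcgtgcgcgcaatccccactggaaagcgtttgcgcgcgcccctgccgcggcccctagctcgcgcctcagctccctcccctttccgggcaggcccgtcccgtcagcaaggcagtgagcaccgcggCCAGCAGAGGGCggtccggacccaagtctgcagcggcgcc
ACBD4: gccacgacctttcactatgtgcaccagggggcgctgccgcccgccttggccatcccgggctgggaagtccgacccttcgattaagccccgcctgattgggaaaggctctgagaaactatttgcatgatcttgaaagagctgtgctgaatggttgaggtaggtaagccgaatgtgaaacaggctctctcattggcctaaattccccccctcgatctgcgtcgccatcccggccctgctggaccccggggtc
KDM3B: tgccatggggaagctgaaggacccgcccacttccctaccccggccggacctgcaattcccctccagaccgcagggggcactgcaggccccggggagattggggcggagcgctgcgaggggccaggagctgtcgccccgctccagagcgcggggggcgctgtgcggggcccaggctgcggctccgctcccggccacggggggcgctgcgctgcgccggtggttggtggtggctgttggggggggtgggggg
ARHGAP22: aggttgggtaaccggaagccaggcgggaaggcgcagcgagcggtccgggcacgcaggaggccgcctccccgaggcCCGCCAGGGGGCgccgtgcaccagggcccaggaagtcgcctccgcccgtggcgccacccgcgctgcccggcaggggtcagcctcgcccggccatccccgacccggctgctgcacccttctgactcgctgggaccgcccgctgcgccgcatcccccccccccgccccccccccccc
WDR38: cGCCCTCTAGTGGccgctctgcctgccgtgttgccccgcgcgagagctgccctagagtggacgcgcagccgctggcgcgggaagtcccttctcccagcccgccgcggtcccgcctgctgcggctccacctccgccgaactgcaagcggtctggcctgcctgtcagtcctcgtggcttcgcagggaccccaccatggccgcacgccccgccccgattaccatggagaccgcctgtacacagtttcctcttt

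The stretches of STAG1, ARHGAP22 and WDR38 held 1 match each, and that of WDR38 was on the opposite strand. No match to these letters was found in the windows of ACBD4 and KDM3B. The members over these stretches held 259.8 normalised tags at STAG1, 246.0 at ACBD4, 241.3 at KDM3B, 210.6 at ARHGAP22 and 209.0 at WDR38. Their local backgrounds were 4.67 at STAG1, 12.0 at ACBD4, 5.05 at KDM3B, 5.92 at ARHGAP22 and 5.46 at WDR38. All 5 stood above the members' 90th percentile of 100.6 tags, but in local background ACBD4 alone stood above the members' 90th percentile of 6.94.

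Promoter sequences were available for 15101 of 19126 autosomal protein-coding genes, as 21156 stretches of 250 bases before to 50 bases after the start. Members overlapped 126 of these, at 114 genes. The short motif, searched on both strands, was in 42.1% of the members' promoters (33.3 to 51.2), in 25.8% of those under other peaks (24.2 to 27.4) and in 12.5% of all promoters. Among peaks of 64 or more normalised tags the shares were 44.7% for members (33.3 to 56.6) and 43.0% for other peaks (38.7 to 47.4), whose intervals overlap. The stricter form, which also asks for A as the first base after CC, so that each of its matches is one of the short form too, was in 7 of the members' 126 promoters, or 5.56% (2.26 to 11.1), in 6.98% of those under other peaks (6.06 to 7.99) and in 2.55% of all. At 64 or more tags the strict form was in 3 of 76 promoters under members, or 3.95% (0.822 to 11.1), and in 72 of 516 under other peaks, or 13.95% (11.1 to 17.3), a lower share in members with intervals that barely touch. A match is a description of letters and not a measured binding site.

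The local background and the tags chose the members, so their sizes are a description. Members made up 3.17% of the 41285 autosomal peaks outside the 4 genes, a share that the threshold fixes. Their local background had a median of 4.88, with quartiles of 4.36 and 5.76 and the highest at 50.8. For other peaks the median was 1.47 and the highest value 3.997. The 3 members just inside the threshold were nearest to CCSER2 (4.003), NPL (4.002) and ARMH1 (4.002), and the 3 peaks just outside to DNAL4 (3.997), HAAO (3.996) and SLC39A11 (3.996). The threshold thus cut through a continuous range. Normalised tags had a median of 51.8 in members and 19.5 in other peaks. Since the caller asked for at least 4-fold over the surroundings, no member could hold fewer than 16 normalised tags. The fold over the surroundings had a median of 9.71 in members and 13.6 in other peaks.

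**Figure D1:**
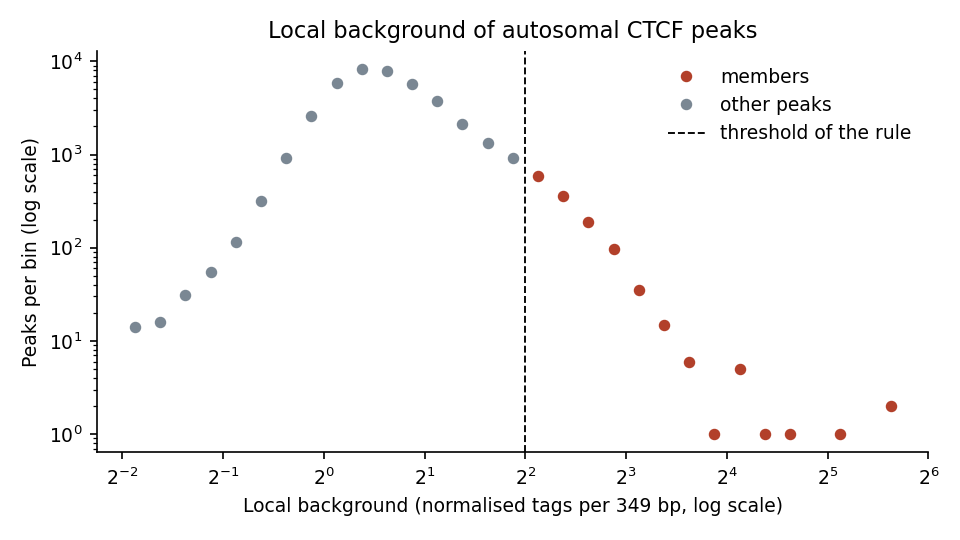
Number of autosomal peaks per bin (y axis, log scale) by local background in normalised tags per 349 bp (x axis, log scale), with members and other peaks as separate sets of points and the threshold marked. Members run from 4.002 to 50.8 and join the other peaks at the threshold without a gap; 47 peaks under 0.25 are not drawn.

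Most members stood beside another peak. At least 1 other called peak lay within 5 kb of 1184 of 1307 members, or 90.6% (88.9 to 92.1), against 13.5% of other peaks (13.2 to 13.9) and 16.0% of all autosomal peaks outside the 4 genes. Exactly 1 such peak was found for 75.8% of members and 13.1% of other peaks, and 2 or more for 14.8% of members and 0.475% of other peaks. The rule partly fixes this difference, since tags of a neighbour within 5 kb lie in the 10 kb that the local background is taken from. In the members with a neighbour, the nearest peak was 737 to 4944 bp away, with a median of 2556 bp. The number of members fell off at the edge of that region: 90 members had their nearest peak at 4500 to 5000 bp, but 8 at 5000 to 5500 bp. In other peaks the same distances held 609 and 770 peaks.

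**Figure D2:**
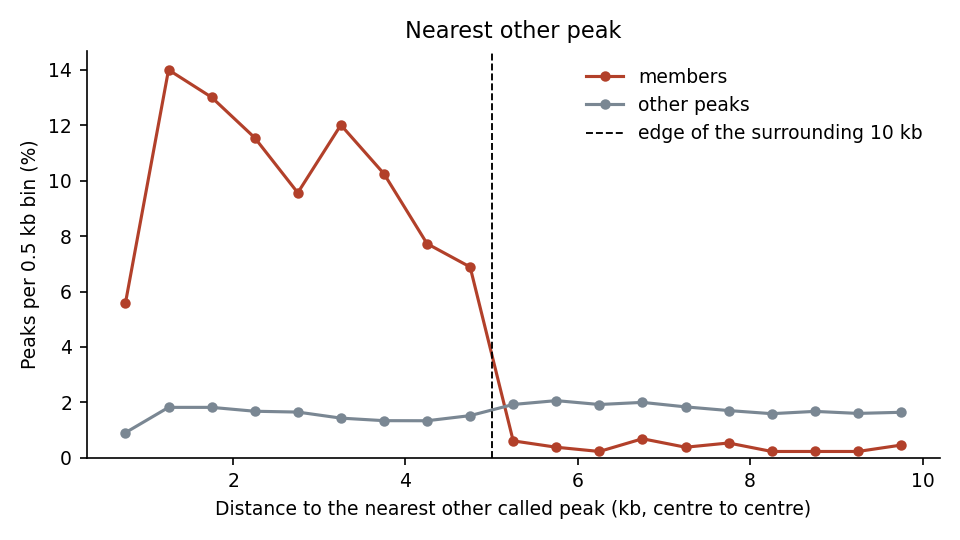
Share of members and of other peaks (y axis, percent) by distance to the nearest called peak (x axis, kb, bins of 0.5 kb). The members' share drops at 5 kb, where the neighbour leaves the surrounding 10 kb, while other peaks show no such drop.

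The members' own tags are not part of their local background in the list. The peak with the most tags of all, on chromosome 3 with PROS1 (protein S, an anticoagulant) as its nearest protein-coding gene at 402449 bp, held 3063 normalised tags. These tags spread over 10 kb would give 106.9 per 349 bp, whereas its local background was 4.05. Neighbours' tags are part of the local background by construction, so the relation between them is a built-in one and only its size is given. Among the 1184 members with a neighbour, local background and the neighbours' tags had a Spearman correlation of 0.72 and a Pearson correlation of 0.79, a description of peaks from 1 library that share their neighbours. Own tags had a Spearman correlation of 0.25 with local background in the same members, and of 0.41 in the 34693 peaks without a neighbour.

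When the neighbours' tags, spread over 10 kb, were subtracted, 202 of 1307 members still stood at 4 or more. These were 79 of the 1184 members with a neighbour and, since nothing was subtracted, all 123 without one. The median member stood at 2.73 after subtraction, against 1.41 for other peaks, and 128 members stood below 2. Among peaks with a neighbour the medians were 2.63 in members and 1.555 in other peaks. Members were chosen by the value before subtraction, so the rule partly fixes a higher remainder, and these values are a description. At 10 or more there were 7 members, all in the 2 chromosome 16 places described below.

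**Figure D3:**
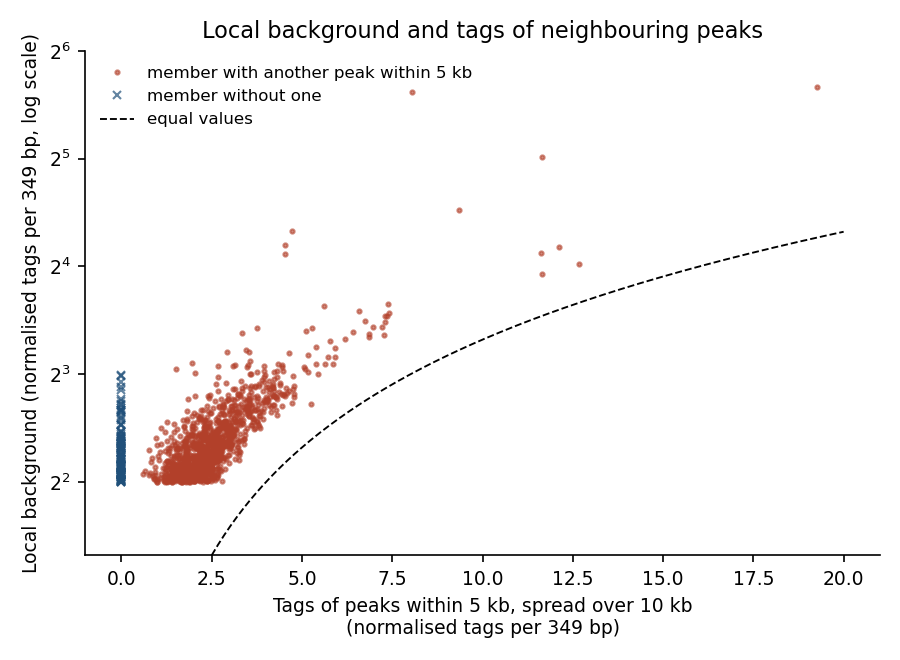
Local background of each member (y axis, normalised tags per 349 bp, log scale) against the tags of other called peaks within 5 kb spread over 10 kb (x axis, same unit), with the line of equal values. Members with a neighbour climb with their neighbours' tags, all of them above the line, and the 123 members without one stand at 0 on the x axis between 4.003 and 7.95.

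Members stood alone or in small groups. Chained within 10 kb of each other they fell into 861 places, of which 485 held 1 member, 316 held 2, 51 held 3, 8 held 4 and 1 held 5. Another member lay within 5 kb of 806 members, or 61.7% (59.0 to 64.3), and 378 members (28.9%) had as neighbours only peaks that were no members. The rule partly fixes this grouping, since peaks that lie close together count in each other's surroundings. BCL6, a transcriptional repressor known from germinal centre B cells, held 4 members within 3.56 kb. Their tags were 63.2, 79.4, 69.8 and 50.8 in order along the chromosome, and their local backgrounds 10.8, 10.5, 11.3 and 11.9. After subtraction they stood at 3.84 to 4.53. PTMA, the prothymosin alpha gene, had 4 members over 8.63 kb with local backgrounds of 6.94 to 12.4.

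ACBD4 on chromosome 17 had 3 members within 3.797 kb, of 101.5, 86.7 and 246.0 normalised tags. The local background was highest at the weakest of them, 18.1, and lowest at the strongest, 12.0, which is over the promoter printed above. The same order was seen in the place nearest to EIF1, a translation initiation factor gene, where peaks of 263.4, 99.4 and 70.3 tags had local backgrounds of 9.48, 15.2 and 16.2. In both places the strong peak counts in its neighbours' surroundings and not in its own. Weak members beside a strong one were also found at COL1A1, the gene of a type I collagen chain, where a peak of 46.3 tags with a neighbour of 209.0 tags had a local background of 11.2, at ARHGAP22, where a peak of 51.8 tags beside 210.6 had 11.7, and at BAIAP2, a gene of actin remodelling, where 49.5 beside 209.0 gave 11.7.

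Several genes held a number of members. Of 19126 autosomal protein-coding genes, 632 (3.3%) had a member inside or within 1 kb, 213 had at least 2 and 24 had at least 3. With 4 members each stood BCL6, DIAPH1 (a formin that builds actin filaments), GNAI2 (an inhibitory G protein subunit) and IQCJ-SCHIP1, a readthrough gene. These were 4 of 5 called peaks at BCL6 and at GNAI2, 4 of 7 at DIAPH1 and 4 of 19 at IQCJ-SCHIP1. The last is a long gene, from 159069319 to 159897359 on chromosome 3, and the counts make no allowance for gene length. At DIAPH1 the local backgrounds ran from 4.10 to 6.11. After subtraction they ran from 1.79 to 2.26, against a median of 1.555 in other peaks with a neighbour. With 3 members stood, among others, ITGB4 (integrin beta 4), HNF4A (a nuclear receptor of liver), MYO7A (an unconventional myosin of the inner ear), NFIX (a nuclear factor I gene), POU2F3 (a POU domain transcription factor) and SEMA3B (a secreted semaphorin). Genes that overlap each other share members in these counts.

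The 2 most extreme places lay on chromosome 16, on either side of the longest stretch of that chromosome without a called peak, 35591264 to 46380657. The first, at 46390465 to 46400938, held 4 members whose nearest protein-coding gene, SHCBP1, was 177827 bp away at the least. Their tags were 416.2, 230.6, 135.3 and 103.6 in order along the chromosome, and their local backgrounds 48.96, 50.8, 32.4 and 20.2. The second, at 34582165 to 34595401, held 5 members, nearest to LOC124903767 at 192518 bp or more. Their tags were 84.6, 129.9, 183.2, 58.3 and 43.7, and their local backgrounds 18.3, 23.1, 17.3, 8.26 and 8.08. After subtraction of the called neighbours the first place stood at 15.4 to 40.9 and the second at 6.04 to 13.8, against 3.84 to 4.53 at BCL6 and 5.44 to 5.97 at ACBD4. The clonal fold, which compares the tags piled on each position with the number the caller foresees, was 0.62, 0.77, 0.91 and 0.90 along the first place and 0.86 to 0.95 in the second, against a median of 0.9 in members and 0.95 in other peaks. Strong members elsewhere had low values as well, such as 0.65 at CLPB and 0.69 at STAG1.

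Within 1 Mb of that stretch, 8 of 30 peaks were members, not all of them from the places above. They were the members of the first place, those of the second with local backgrounds of 8.26 and 8.08, and the members inside NETO2. The NETO2 members belong to neither place and stood below the members' median local background of 4.88. The strongest members of the second place, with local backgrounds of 18.3, 23.1 and 17.3, lay farther than 1 Mb from the stretch. Over the longest peak-free stretch of each of the 22 autosomes, 11 of 398 flanking peaks were members, or 2.76% (1.39 to 4.89), and these lay on 4 autosomes (3, 7, 12 and 16). That interval includes the 3.17% of the whole list, and chromosome 16 supplied 8 of the 11.

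The 123 members without a neighbour within 5 kb were strong peaks. Their tags had a median of 94.5, against 49.7 in members with a neighbour and 19.3 in other peaks without one. Among peaks without a neighbour, members were 0.0635% of those with 16 to 32 normalised tags, 0.222% at 32 to 64, 3.33% at 64 to 128 and 15.3% at 128 or more (10.6 to 21.1). Among peaks with a neighbour the same bands held 10.98%, 31.0%, 59.0% and 87.1% members (70.2 to 96.4 in the last). The rule used tags in computing the local background, so these shares are a description. Of the lone members, 47 (38.2%, 29.6 to 47.4) lay within 1 kb of a protein-coding gene end, against 12.3% of other lone peaks (12.0 to 12.7). At matched tags, in the bands that hold most lone members, the shares overlapped: 30.0% of lone members (19.6 to 42.1) and 30.3% of other lone peaks (28.3 to 32.3) at 64 to 128 tags, and 46.7% of lone members (28.3 to 65.7) and 38.0% of other lone peaks (30.5 to 45.8) at 128 or more. In the weaker bands, with few lone members, the intervals did not overlap. At 16 to 32 tags 57.1% of 7 lone members (18.4 to 90.1) and 8.27% of other lone peaks (7.76 to 8.80) were near an end. At 32 to 64 it was 50.0% of 16 lone members (24.65 to 75.35) and 12.5% of other lone peaks (11.7 to 13.2). On chromosome 3 lay 22 lone members (17.9%, 11.6 to 25.8), against 7.59% of other lone peaks.

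The lone members of highest local background, listed after their values were seen, were at or nearest to ARL2 (a small GTPase of microtubule assembly; 132.2 tags, local background 7.95), XXYLT1 (a xylosyltransferase that modifies Notch; 173.9 tags, 7.92), FOXL2 (an ovarian transcription factor; 146.5 tags, 7.60), SETD1B (a histone H3 lysine 4 methyltransferase; 203.3 tags, 7.37) and COXFA4L2 (261.8 tags, 7.23). MECOM, a zinc finger transcription factor gene, followed with 112.4 tags and 6.85, then PDE4A, a cyclic AMP phosphodiesterase gene, with 100.5 tags and 6.73, and CTCFL, the testis paralogue of CTCF, with 178.8 tags and 6.62. CLPB, a mitochondrial chaperone gene, had the most tags among lone members near a gene end, 354.2, with a local background of 5.23. None reached the levels of the 2 chromosome 16 places. The lone members' focus ratio, the caller's measure of how cleanly the strands fall to either side of a peak's middle, as a fraction, had a median of 0.809 (0.788 to 0.831), against 0.846 in other lone peaks.

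Gene positions were not used by the rule. Within 1 kb of a protein-coding gene end lay 297 of 1307 members, or 22.7% (20.5 to 25.1), against 12.1% of other peaks (11.8 to 12.5) and 12.5% of all. Inside genes and farther from an end lay 37.3% of members and 42.2% of other peaks, and outside genes 40.0% of members and 45.7% of other peaks. The median distance to the nearest end was 4323 bp in members and 20900 bp in other peaks, and 2.98% of members but 19.7% of other peaks were over 100 kb from one. Members held more tags, which move with the same measure, so the shares were also set side by side within bands of tags. At 16 to 32 normalised tags 19.1% of members (14.5 to 24.4) and 8.37% of other peaks (7.90 to 8.86) were near an end, and at 32 to 64 it was 17.3% of members (14.3 to 20.6) and 12.1% of other peaks (11.4 to 12.8). At 64 to 128 the shares were 31.4% in members and 29.3% in other peaks, and at 128 or more 36.8% in members and 38.8% in other peaks, and in both of these bands the intervals overlapped. Among peaks with a neighbour, the shares were 18.0% of members and 8.90% of other peaks at 16 to 32 tags, 16.4% of members and 9.90% of other peaks at 32 to 64, and 31.7% of members (26.6 to 37.1) and 20.1% of other peaks (15.1 to 25.9) at 64 to 128, with no overlap of intervals in these 3 bands. These intervals treat each peak as independent, although 806 of 1307 members had another member within 5 kb. They can therefore be too narrow. The bands match a peak's own tags and not those of its neighbours. Neighbours' tags had a median of 67.3 in members with a neighbour and 21.9 in other peaks with one. The part of this difference in the shares near an end was not tested. At 128 or more the other peaks with a neighbour were 4, too few to read. These bands were added after seeing the values.

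**Figure D4:**
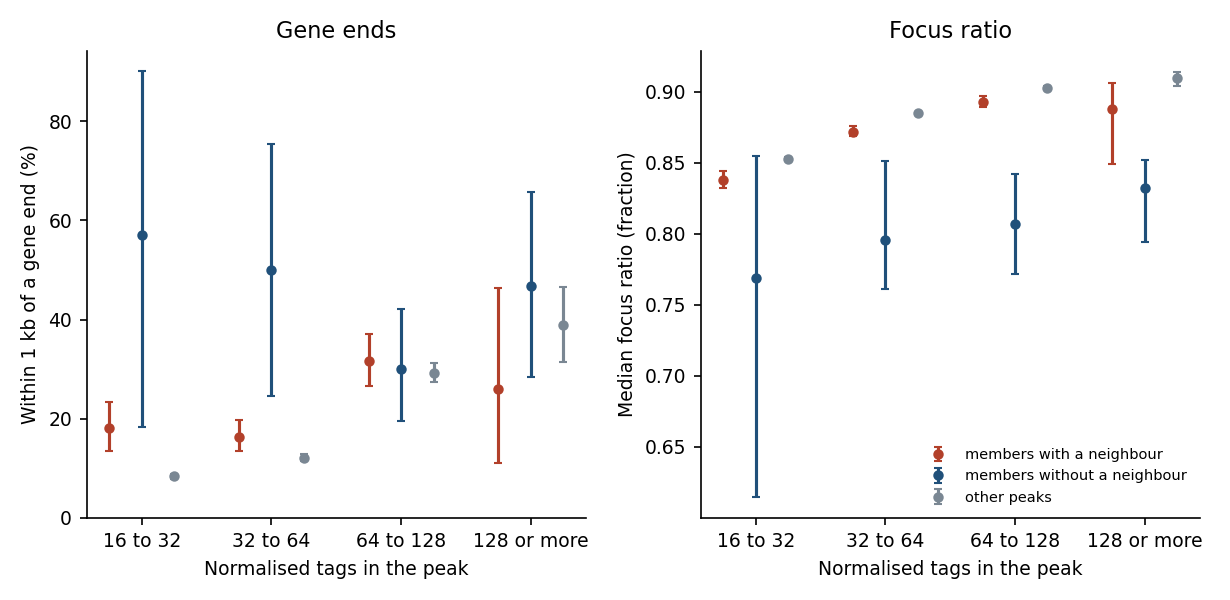
Share of peaks within 1 kb of a protein-coding gene end (percent) and median focus ratio, by band of normalised tags, for members with a neighbour, members without one and other peaks, with 95% intervals. Both kinds of member stand above other peaks near gene ends in the lower 2 bands. Members without a neighbour have the lowest median focus ratio in every band. At 16 to 32 tags they are 7, and their interval (0.615 to 0.855) covers the medians of members with a neighbour and of other peaks.

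Where the strand was known, the near end was the start of the gene for 169 of 241 members, or 70.1% (63.9 to 75.8), and for 80.8% of other peaks (79.5 to 82.0). In members with a neighbour the share of starts was 67.5% (60.5 to 73.9), against 77.3% of other peaks with one (73.2 to 81.0). These intervals overlap. Members without a neighbour had 34 starts of 41 (82.9%, 67.9 to 92.9), against 81.3% of other peaks without one. The focus ratio had a median of 0.870 in members (0.867 to 0.873) and 0.846 in other peaks (0.845 to 0.847). Within bands the order turned round: 0.837 in members and 0.853 in other peaks at 16 to 32 tags, 0.871 in members and 0.885 in other peaks at 32 to 64, 0.888 in members and 0.903 in other peaks at 64 to 128, and 0.852 in members and 0.910 in other peaks at 128 or more. The intervals of members and other peaks did not overlap in any of the 4 bands. The focus ratio comes from the same tags that the rule used, so the rule may build in part of this order. How large that part is was not tested. In the strongest band members without a neighbour had a median of 0.832 (0.794 to 0.852). Those with one had 0.888 (0.849 to 0.906), a range reaching that of other peaks. Along the first chromosome 16 place the focus ratios were 0.662, 0.669, 0.819 and 0.622. Along the second they were 0.729, 0.87, 0.846, 0.715 and 0.697. The members' 10th percentile was 0.786.

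For each member the median local background of the other peaks within 500 kb was taken. The median of these values over members was 1.71 (1.70 to 1.73). Around other peaks it was 1.49, where each peak counts in its own surroundings. Members of 1 place repeat nearly the same surroundings. Since other peaks lie below 4 by the rule, these values say nothing on how far the members' own level extends. Around members without a neighbour the median was 1.78, and around members with one 1.71, with overlapping intervals.

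Members were found on all 22 autosomes. Their share of the peaks was 6.76% on chromosome 19 (5.54 to 8.16) and 6.55% on chromosome 17 (5.46 to 7.79), and 0.61% on chromosome 4 (0.325 to 1.04), 0.882% on chromosome 13 and 1.09% on chromosome 18. Chromosome 1 held the most, 150, and chromosome 3 held 131. Across the autosomes the share had a Spearman correlation of 0.78 with protein-coding genes per Mb. With the share of peaks that have a neighbour, which the rule partly builds in, it was 0.65. It was 0.88 with the median local background of the autosome's other peaks, the measure that the rule uses. Chromosome 3 stood apart from gene density, with 4.28% members at 5.38 genes per Mb, and its other peaks had a median local background of 1.695, against 1.694 on chromosome 19, the next of the 22. Copy number was not measured, and its part in the chromosome 3 value was not tested.

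**Figure D5:**
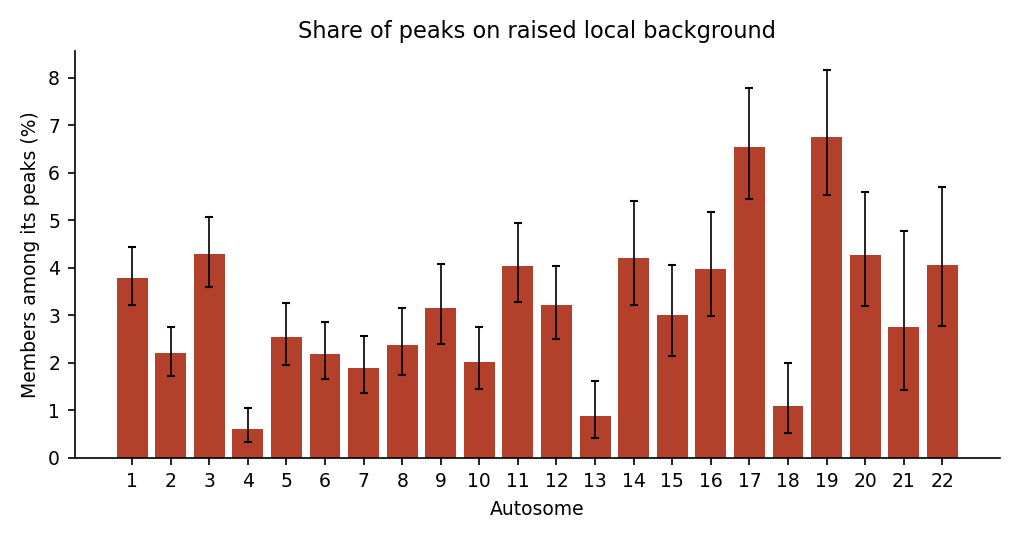
Share of each autosome's peaks that are members (y axis, percent), with the 22 autosomes on the x axis; bars start at 0 and lines are 95% Clopper-Pearson intervals. Chromosomes 17 and 19 are highest and chromosomes 4, 13 and 18 lowest.

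Gene lists of CTCF's partners and of the cell type were read against the 3.3% of all genes with a member. Of 17 genes of the cohesin and CTCF machinery 3 had one (17.6%, 3.799 to 43.4), and that list includes the 4 genes that the rule left out. STAG1 had a peak 24 bp from its end. PDS5A, which regulates cohesin release, had 2 members of 61.2 and 105.7 tags with local backgrounds of 6.36 and 4.76. CTCFL had 2, of 31.8 and 178.8 tags with local backgrounds of 4.68 and 6.62. Of 22 genes of melanoma growth control, 2 had a member: CCND1 (cyclin D1), a lone peak of 67.2 tags with a local background of 4.65, and PDGFRA (a growth factor receptor), with 39.0 tags and 4.88.

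None of 23 melanocyte lineage genes had a member, which allows a share of up to 14.8%, although 17 of them had a peak. The same was true of 18 housekeeping genes (up to 18.5%), 69 replication-dependent histone genes (up to 5.21%) and 32 mitotic genes (up to 10.9%). Of 82 cytosolic ribosomal protein genes 3 had a member, among them RPL36 (120.8 tags, local background 6.44) and RPS18 (17.2 tags, 4.14), a share of 3.66% that is near the background. Of 39 HOX genes 1 had a member, HOXD13, a limb patterning gene, with 48.7 tags and a local background of 4.19. The interval of the cohesin and CTCF list lies above the 3.3% of all genes, on 3 genes of a list chosen with earlier results known. The intervals of the other lists include that share.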

How the data were processed

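CTCF ChIP-seq peaks of asynchronous MDA-MB-435 cells, replicate 1, were analysed. The submitters' processing notes name Bowtie2, HOMER and hg38 without versions. Per the file headers, the caller made peaks of 349 bp from fragments of 164 bp at a false discovery rate of 0.001, and kept those at least 4-fold above their surrounding 10 kb. The deposited signal of a peak is its tags, which the authors' caller scaled to 10000000. The authors deposited the focus ratio as a fraction beside the caller's peak score. Fold over the surroundings and clonal fold are ratios, as deposited by the authors. A local p-value was also deposited and stayed unused.

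Local background is normalised tags over the fold. Genes, promoters and strand came from RefSeq on GRCh38.p14, which has the same chromosomes as hg38. A gene end is either annotated end of a protein-coding gene. The members and gene lists were chosen with earlier results of these data known. Genes are named by rule: the 20 members of highest local background, the 10 with most tags, places of 4 or more members, genes with at least 3 members, the 3 peaks on each side of the threshold and list genes with a member, with the text describing some of each; 1 list gene is not reported here. Lone members, bands of tags and the short motif were added after seeing values. The computations were tested on simulated peaks. Software was Python 3.11.15 with numpy 2.4.6, pandas 2.3.3, matplotlib 3.10.9 and scipy 1.17.1. With 1 library, no p-value was computed.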

Additional observations from a re-analysis of the deposited data

Results flagged for a closer look

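Off the autosomes, 8 peaks had a local background of 4 or more, of 1149 called there. They lie outside the peaks compared above and were listed because a signal at that level appears in data the comparisons do not use. On the X chromosome 2 peaks, both inside RAD21P1, a pseudogene of RAD21, held 190.0 and 171.0 normalised tags with local backgrounds of 18.1 and 18.9. The other 6 lay on unplaced or unlocalised sequences, with local backgrounds of 4.05 to 24.9. The parental gene RAD21 is one of the 4 genes whose peaks were left out, and of the 28 peaks at those genes 19 stood at 4 or more.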

How the results depend on the processing

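No paired analysis was possible because 1 library was analysed, and leaving out a replicate could not be done for the same reason. Of 41 alternatives, 17 moved a value by less than its interval or by less than 1.5 times for a count, and 24 moved it further. Whether an alternative turned the order of members and other peaks was not scored. Subtraction put the members' focus ratio below that of other peaks, above which it stood. For these 24 alternatives the cause was not tested except where the alternative itself sets it. With a threshold of 3 there were 3038 members in 1942 places, 83.0% with a neighbour within 5 kb, a median focus ratio of 0.866 and a surrounding local background of 1.63. With a threshold of 6 there were 270 members in 202 places, 25.2% near a gene end, 93.7% with a neighbour and surroundings of 1.85. With neighbours' tags subtracted before the threshold there were 202 members in 158 places, 32.7% near a gene end, 39.1% with a neighbour, a focus ratio of 0.834, against 0.846 in the other peaks of the original rule, and surroundings of 1.86. Counting 1 member per place gave 86.5% with a neighbour, a window of 10 kb gave 94.6%, and counting only neighbours that are no members 31.4%. The share near a gene end was 14.9% within 500 bp (other peaks 8.79%), 53.4% within 5 kb (25.1%) and 31.98% with all annotated genes (18.4%). Surroundings within 100 kb stood at 1.86. The short motif, added after seeing the data, was in 42.1% of promoters against 5.56% for the strict one. Depth limits weak peaks most: the median member rests on 100 sequenced tags and the median other peak on 37.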
